A study of Mus musculus with 19 samples.

Results

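The response of C2C12 cells, a line of mouse myoblasts, to thapsigargin at 12 h was set against their response at 2 h. Thapsigargin blocks SERCA, the pump that fills the endoplasmic reticulum (ER) with calcium. The quantity reported for each gene is the response change: thapsigargin minus DMSO at 12 h, minus thapsigargin minus DMSO at 2 h, on the log2 scale. It used 10 of the 19 libraries of the study, chosen by their labelled treatment and hour. They are 2 libraries of cells with 100 nM thapsigargin for 12 h and 2 with the vehicle DMSO for 12 h, against 3 libraries with 100 nM thapsigargin for 2 h and 3 with DMSO for 2 h. All of these cells are labelled wild type and were grown in medium with fetal bovine serum. The libraries left out are 3 each of DMSO at 6 h, of thapsigargin at 6 h, and of 6 h of thapsigargin with 48 h of drug-free medium after it. The 12 h and 2 h groups have no library in common, so each response has its own vehicle control. Nothing in the labels tells whether the replicates of a group came from separate cultures. The p-values rest on the spread among these libraries, and part or all of it may be technical. The study's title names ATF4 and CEBPγ, a pair of transcription factors of the integrated stress response.

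Emptying of ER calcium leaves proteins in the ER unfolded, and cells answer through the sensors PERK, IRE1 and ATF6, known together as the unfolded protein response (UPR). PERK phosphorylates the initiation factor eIF2, which lowers overall protein synthesis while the mRNA of ATF4 is translated more. ATF4 then drives genes for amino acid supply and for feedback, and this branch, which other kinases also enter, is the integrated stress response (ISR). ATF6 and XBP1, the factor made after IRE1 splices its mRNA, drive ER chaperones, ER-associated degradation and transport out of the ER. Immediate early genes such as Egr1 and Fos are known to rise fast after calcium or growth factor signals and to be switched off again by feedback.

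The libraries at 12 h held 17305962 to 21825491 gene counts and those at 2 h 32129804 to 40964140, so the 12 h values carry the larger counting error. 1 library stood apart. DMSO 2 h replicate 3 had 15.797% of its gene counts on mitochondrially encoded genes (Wilson 95% interval 15.786 to 15.808, counting error only), against 2.226% to 3.068% in the other 9 libraries. Its log2 levels correlated at 0.9505 and 0.9545 with its own group, across genes, where every other pair within a group of these 10 libraries reached at least 0.995. Results are therefore given with it and, where it moves them, without it. Among myoblast markers, Myod1, the myogenic master factor, stood at 4.67 and 6.01 CPM (counts scaled by TMM to a library total of 1000000) with thapsigargin and 15.7 and 14.5 CPM with DMSO at 12 h, against 187, 175 and 159 CPM with thapsigargin and 238, 212 and 251 CPM with DMSO at 2 h. Desmin (Des), the intermediate filament of muscle, stood between 366 and 1339 CPM in the 10 libraries. Both markers were present in each library, and both were lower at 12 h than at 2 h in drug-treated and vehicle-treated cells alike. Myf5, another marker given below, was instead higher at 12 h in drug-treated cells. Of 17 myoblast identity genes tested, 13 were called lower and 2 higher at 12 h than at 2 h with thapsigargin. With DMSO 12 were lower and 0 higher. Of all genes tested, 24.1% were lower and 21.5% higher with thapsigargin, and 14.4% and 9.62% with DMSO. In bulk RNA, fewer cells of a type and less RNA per cell cannot be told apart. Markers of other cell types were counted as well. Of 8 for macrophages 3 passed the filter on low counts and 0 were called in the response change, while Adgre1, Itgam and Tyrobp had at most 3 counts in each of the 10 libraries. Of 8 for endothelium 5 passed and 2 were called higher, of 8 for epithelium 7 passed with 1 called each way, of 7 for adipocytes 5 passed with 2 called higher and 1 lower, of 8 for osteoblasts 5 passed with 1 lower, and of 6 for neurons 3 passed with 1 lower. The shares over all genes tested were 8.59% higher and 11.6% lower in the response change. The summed osteoblast markers, mostly Spp1, a secreted protein that other cells make too, were 926 to 968 CPM with thapsigargin and 2860 to 2933 CPM with DMSO at 12 h, against 2039 to 2140 CPM with thapsigargin and 3015 to 4233 CPM with DMSO at 2 h. The summed adipocyte markers were 139 to 148 CPM with thapsigargin and 65.2 to 71.4 CPM with DMSO at 12 h, against 80.1 to 89.7 CPM with thapsigargin and 68.8 to 92.8 CPM with DMSO at 2 h. The summed neuron markers were 92.4 to 107 CPM with thapsigargin and 120 to 128 CPM with DMSO at 12 h, against 223 to 243 CPM with thapsigargin and 254 to 338 CPM with DMSO at 2 h, and the sums for macrophages, endothelium and epithelium were at most 45.7 CPM in any library. The defining genes Adipoq, Plin1, Bglap, Ibsp, Tie1, Emcn, Epcam and Snap25 had at most 3 counts in each of the 10 libraries, and the part of these markers in any result was not tested.

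Of 16597 genes that passed that filter, 3353 (20.2%) changed their response between the hours at an adjusted p under 0.05 (edgeR quasi-likelihood test, Benjamini-Hochberg adjustment). The response was higher at 12 h for 1426 genes, or 8.59% of those tested, and lower for 1927, or 11.6%. The difference reached at least 2-fold in 2080 of the called genes, and the median over all genes tested was 0.03 on the log2 scale. Lists of ER chaperones, amino acid supply, tRNA charging and antioxidant defence held more genes with a higher response at 12 h than with a lower one. Lists of immediate early genes, feedback inhibitors of MAP kinase signalling, clock genes, matrix genes and cell cycle genes held more with a lower one. With DMSO 2 h replicate 3 left out, 7655 of 16441 genes (46.6%) were called, 3498 higher (21.3%) and 4157 lower (25.3%). All list counts given below stand beside these shares, 8.59% higher and 11.6% lower with that library and 21.3% and 25.3% without it. Of the 3353, 3340 (99.6%) were called again with the same sign, 0 were called with the opposite sign, and they made up 43.6% of the 7655. Among fits with 1 library left out the count was lowest, 1868, without DMSO 12 h replicate 1, and it was 1994 without DMSO 12 h replicate 2 and 2162 without thapsigargin 12 h replicate 2. A fit over all 19 libraries had a wider spread (common biological coefficient of variation 0.352, beside 0.178). It called 916 of 18039 genes tested, 347 higher and 569 lower, and 910 of the 916 were among the 3353 with the same sign. The list counts of that fit stand beside these counts over all genes. In that fit higher responses were called for 14 of 22 ER chaperones, 5 of 16 enzymes of amino acid synthesis, 2 of 12 amino acid transporters, 1 of 20 tRNA synthetases, 3 of 17 degradation genes, 3 of 20 translocon and transport genes, 5 of 20 antioxidant genes and 0 of 30 ribosomal protein genes. It called lower responses for 12 of 25 immediate early genes, 6 of 17 MAP kinase feedback genes, 5 of 16 clock genes, 8 of 23 NF-kB genes and cytokines and 9 of 26 matrix genes. With library totals in place of TMM scaling, the split moved to 845 higher and 2499 lower, and the median of all genes to -0.19.

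The calls fall into classes by what thapsigargin did at each hour, since the same response change can come from an induction that grew or from a repression that eased. At 12 h 5402 genes (32.5%) were called for thapsigargin against DMSO, 16.0% of all tested as higher and 16.6% as lower, and at 2 h 3879 (23.4%), 12.4% as higher and 11.0% as lower. Of the 1426 genes with a higher response at 12 h, 825 (57.9%) were higher with thapsigargin at 12 h and not called at 2 h, and 171 (12.0%) were higher at both hours. For 135 genes (9.47%) the response changed sign, with thapsigargin above DMSO at 12 h and below it at 2 h, and 215 (15.1%) were lower at 2 h and not called at 12 h. The other classes held 76 genes called at neither hour and 4 lower at both. Of the 1927 with a lower response at 12 h, 1065 (55.3%) were lower with thapsigargin at 12 h and not called at 2 h, 256 (13.3%) were lower at both hours, and 48 were called at neither. A further 306 (15.9%) were higher at 2 h and not called at 12 h, 215 (11.2%) were higher at 2 h and lower at 12 h, and 37 (1.92%) were higher at both hours, less so at 12 h. Without DMSO 2 h replicate 3 the calls numbered 9289 at 12 h and 8222 at 2 h.

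**Figure D1:**
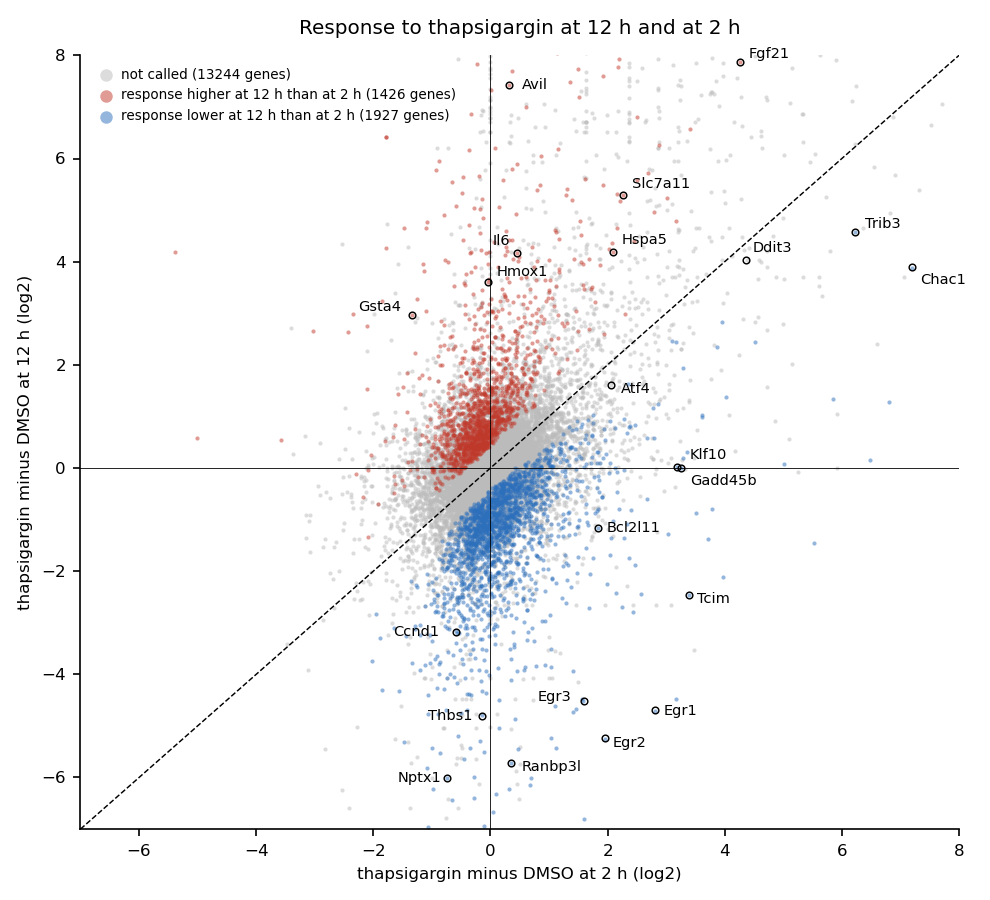
Each point is 1 of the genes tested, with thapsigargin minus DMSO at 2 h on the x axis and at 12 h on the y axis (log2). Red points are the 1426 genes and blue points the 1927 genes called in the response change, which is the vertical distance from the dashed line of equal response. Hspa5 and Slc7a11 lie above the line, Chac1 and Trib3 below it on the induced side, and Egr1, Egr2 and Egr3 below it with opposite signs at the hours. 58 genes lie outside the axes.

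Among ER lumen chaperones and folding enzymes, 19 of 22 had a higher response at 12 h and 0 a lower one. At 12 h 19 of the 22 were higher with thapsigargin, and at 2 h 8 were. Their median response change was 1.83, beside 0.03 for all genes tested, and without DMSO 2 h replicate 3 all 22 were called higher. The count was 14 with library totals as the scaling. Hspa5 (ENSMUSG00000026864.13, chr2:34771970-34777547, plus strand, GRCm38) encodes BiP, the main Hsp70 chaperone of the ER. It stood at 15398 and 14541 CPM with thapsigargin and 811 and 828 CPM with DMSO at 12 h, against 3869, 3760 and 3304 CPM with thapsigargin and 933, 944 and 677 CPM with DMSO at 2 h. Drug and vehicle did not overlap at either hour, and the drug-treated cells at 12 h were the highest. Thapsigargin raised it 18.3-fold at 12 h and 4.28-fold at 2 h, a response change of 2.09 ± 0.22 on the log2 scale (SE, adjusted p = 0.00016), or 2.21 without DMSO 2 h replicate 3. Its level in vehicle-treated cells differed by -0.05 between the hours (log2, 12 h minus 2 h, adjusted p = 0.83).

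Pdia4, a protein disulfide isomerase, had the largest called change of the list after Dnajb9, at 2.76 ± 0.14 (adjusted p = 4.8e-06). It stood at 2159 and 2134 CPM with thapsigargin and 210 and 216 CPM with DMSO at 12 h, against 298, 266 and 254 CPM with thapsigargin and 180, 186 and 186 CPM with DMSO at 2 h. The 12 h drug libraries were far above all others, while those at 2 h exceeded DMSO by 1.48-fold. Dnajb9 (ERdj4), a J-protein partner of BiP, changed by 3.17 ± 0.65 (adjusted p = 0.0072), but its DMSO levels at 2 h, 21.9, 20.0 and 70.1 CPM, overlapped those with thapsigargin at that hour, 62.3, 63.2 and 61.0 CPM. Without DMSO 2 h replicate 3 its response change was 2.31. Hyou1 (the ER Hsp110 relative) changed by 2.63 ± 0.26, Sdf2l1 (a BiP cofactor) by 2.36 ± 0.39, Ero1l (an ER oxidase) by 2.36 ± 0.18 and Manf (a secreted ER protein) by 2.22 ± 0.13, all higher at 12 h. Dnajc10, Sil1 and Txndc5 were the 3 members not called, at 0.34, 0.42 and 0.72.

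ER-associated degradation, which returns misfolded proteins to the cytosol for the proteasome, had 9 of 17 members with a higher response at 12 h and 0 with a lower one, though 4 without either DMSO 12 h library and 5 without thapsigargin 12 h replicate 2. Sel1l, the scaffold of the Hrd1 ligase, changed by 2.24 ± 0.17 (adjusted p = 2.6e-05) and stood at 1039 and 938 CPM with thapsigargin and 126 and 128 CPM with DMSO at 12 h, against 239, 227 and 199 CPM with thapsigargin and 140, 143 and 123 CPM with DMSO at 2 h. Its drug-treated libraries were the highest at both hours, and higher at 12 h. Selenos changed by 2.01 ± 0.40 and Edem2, which helps trim glycans of misfolded proteins, by 1.71 ± 0.18.

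Translocon and COPII transport genes, which bring proteins into the ER and carry them on to the Golgi, had 13 of 20 members higher in the response change and 0 lower. At 2 h 0 of them were higher with thapsigargin and 3 were lower, and at 12 h 12 were higher. Ssr2, a subunit of the translocon-associated complex, stood at 238 and 261 CPM with thapsigargin and 113 and 106 CPM with DMSO at 12 h, against 68.3, 69.6 and 70.8 CPM with thapsigargin and 105, 110 and 107 CPM with DMSO at 2 h. It was thus the lowest of all groups with thapsigargin at 2 h and the highest with thapsigargin at 12 h, a response change of 1.81 ± 0.13 (adjusted p = 2.2e-05). Sec61a1, the pore subunit of the translocon, changed by 1.55 ± 0.14, with 1.44 at 12 h and -0.11 at 2 h, and Spcs2 of the signal peptidase by 1.85 ± 0.31.

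Among 10 UPR sensors and their factors 4 were called higher and 0 lower, beside 8.59% and 11.6% of all genes tested. Atf6, the ER-bound sensor and factor, changed by 1.40 ± 0.27 (adjusted p = 0.0058), Creb3, a related ER-bound factor, by 1.31 ± 0.22, Atf6b by 0.54 ± 0.15 and Ern1, which encodes IRE1, by 0.79 ± 0.13. Xbp1 was higher with thapsigargin at both hours, by 1.85 at 12 h and 1.47 at 2 h, and its response change of 0.38 was not called (adjusted p = 0.19). The counts are per gene, so they do not separate its spliced form. Among genes of ER calcium, Atp2a2, which encodes the SERCA pump that thapsigargin blocks, stood at 1236 and 1214 CPM with thapsigargin and 416 and 421 CPM with DMSO at 12 h, against 635, 604 and 579 CPM with thapsigargin and 600, 594 and 614 CPM with DMSO at 2 h. Drug and vehicle overlapped at 2 h and were well apart at 12 h, with a response change of 1.54 ± 0.13 (adjusted p = 5e-05). Atp2a3, another SERCA gene, stood at 51.2 and 55.0 CPM with thapsigargin and 0.339 and 0.193 CPM with DMSO at 12 h, against 3.92, 3.78 and 4.33 CPM with thapsigargin and 1.26, 0.652 and 1.25 CPM with DMSO at 2 h, and its response was higher at 12 h by 5.67 ± 0.42. Atp2b4, a calcium pump of the plasma membrane, went the other way, at -1.86 ± 0.24, and of the 20 calcium genes tested 6 were higher and 4 lower in the response change, with 2 lower without thapsigargin 12 h replicate 1, either DMSO 12 h library or thapsigargin 2 h replicate 1.

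The motif that ATF6 is known to bind with the factor NF-Y, the ER stress response element, is made of CCAAT and CCACG with 9 bases of any kind between them. It was searched on both strands in RefSeq promoters (GRCm38.p6, 250 bases before to 50 after a gene's start), which matched 11302 of the genes tested. It was in 10 of the 1086 genes with a promoter and a higher response at 12 h (0.921%), in 0 of 1434 with a lower response, in 10 of 8782 not called (0.114%) and in 0.137% of all promoters in the table. Among all genes tested that had a promoter the share was 0.177%. Of the 17 ER chaperone genes with a promoter it was in 7 (41.2%), namely Hspa5, Hsp90b1, Dnajc3, Creld2, Calr, Canx and Pdia6, each of them called higher. A match is a description and not a site. The promoters of Hspa5 and of Hsp90b1, which encodes the ER Hsp90, are printed 5′ to 3′ in the sense of the gene as a pair of those that carry the motif. Capitals mark the motif, as its reverse complement where it lies on the other strand. In Hspa5 it begins 65 bases before the start, and in Hsp90b1 it occurs at 212 bases before the start and, reversed, at 107 bases before it.
Hspa5, chr2:34771840-34772139, plus strand: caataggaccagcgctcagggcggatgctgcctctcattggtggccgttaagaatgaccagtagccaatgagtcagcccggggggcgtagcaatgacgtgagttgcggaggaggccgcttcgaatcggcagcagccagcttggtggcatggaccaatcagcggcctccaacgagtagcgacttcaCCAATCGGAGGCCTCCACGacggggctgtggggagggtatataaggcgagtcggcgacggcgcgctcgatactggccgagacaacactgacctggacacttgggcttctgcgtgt
Hsp90b1, chr10:86705395-86705694, minus strand: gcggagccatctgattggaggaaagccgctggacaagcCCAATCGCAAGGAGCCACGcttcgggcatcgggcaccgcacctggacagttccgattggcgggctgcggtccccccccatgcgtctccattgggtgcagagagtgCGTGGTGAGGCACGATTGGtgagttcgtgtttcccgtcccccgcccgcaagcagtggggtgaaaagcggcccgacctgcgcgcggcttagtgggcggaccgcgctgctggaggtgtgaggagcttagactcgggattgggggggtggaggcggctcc

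The transcription factors and feedback genes of the ISR were induced at both hours and split in how their response changed. Of 18 members, 16 were higher with thapsigargin at 12 h and 17 at 2 h, with 0 lower at either hour. In the response change 6 were higher, 4 lower and 8 not called, and the median was -0.19. The lower count was 2 without any 1 of the 4 libraries at 12 h and 7 without DMSO 2 h replicate 3. Atf4 itself (ENSMUSG00000042406.8, chr15:80255184-80257541, plus strand, GRCm38) stood at 1048 and 1120 CPM with thapsigargin and 338 and 372 CPM with DMSO at 12 h, against 923, 967 and 914 CPM with thapsigargin and 263, 261 and 151 CPM with DMSO at 2 h. The drug-treated libraries lay above the vehicle ones at both hours, at similar levels. Its induction was 3.05-fold at 12 h and 4.15-fold at 2 h, and its response change of -0.44 ± 0.29 was not called (adjusted p = 0.33), but was called at -0.25 without DMSO 2 h replicate 3 (adjusted p = 0.013). Cebpg, the gene of CEBPγ, had an induction of 1.44 at 12 h and 1.82 at 2 h (log2) and a response change of -0.38 ± 0.29 (adjusted p = 0.4). In the same measure Ddit3, the pro-apoptotic factor CHOP, had -0.34 (adjusted p = 0.29), Cebpb -0.29 (adjusted p = 0.65) and Atf3 -0.10 (adjusted p = 0.89). A missed call does not show that these responses were equal. Without DMSO 2 h replicate 3 the Cebpb response was called lower, at -0.70 (adjusted p = 2.9e-05), and the sign of the Atf3 value was the opposite, 0.14.

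Chac1, Trib3, Sesn2 and Ddit4 were the 4 ISR genes with a called smaller induction at 12 h. Chac1 (ENSMUSG00000027313.3, chr2:119351229-119354381, plus strand, GRCm38), an enzyme that breaks down glutathione, stood at 298 and 341 CPM with thapsigargin and 18.6 and 24.7 CPM with DMSO at 12 h, against 564, 571 and 539 CPM with thapsigargin and 4.92, 3.91 and 2.50 CPM with DMSO at 2 h. With thapsigargin it was lower at 12 h than at 2 h, and with DMSO it was higher at 12 h, without overlap in either. Its induction was 14.8-fold at 12 h and 147-fold at 2 h, a response change of -3.32 ± 0.32 (adjusted p = 0.00011). The vehicle level differed by 2.51 between the hours and the drug level by -0.80, so the larger part of this response change lay in the DMSO libraries. Trib3, a pseudokinase that restrains ATF4 and AKT, stood at 282 and 310 CPM with thapsigargin and 11.9 and 13.1 CPM with DMSO at 12 h, against 211, 225 and 203 CPM with thapsigargin and 3.48, 3.68 and 1.38 CPM with DMSO at 2 h. Its drug level differed by 0.47 (adjusted p = 0.17) and its DMSO level by 2.12 (adjusted p = 0.00077), and its response change of -1.65 ± 0.40 (adjusted p = 0.017) lost its call without any 1 of the 4 libraries at 12 h. Sesn2 (a stress sensor that restrains mTORC1, -1.52 ± 0.14) and Ddit4 (REDD1, another such brake, -1.63 ± 0.43) were the others. Ppp1r15a, which encodes GADD34, the phosphatase subunit that reverses eIF2 phosphorylation, was induced more at 12 h, by 2.22 ± 0.19 (adjusted p = 5.7e-05). Fgf21, a secreted stress hormone, stood at 20.0 and 24.3 CPM with thapsigargin and 0.0847 and 0.0963 CPM with DMSO at 12 h, against 6.36, 7.39 and 6.38 CPM with thapsigargin and 0.210, 0.563 and 0.256 CPM with DMSO at 2 h, and its response was higher at 12 h by 3.61 ± 0.62 (adjusted p = 0.0028). Vldlr, a lipoprotein receptor, stood at 2.01 and 1.91 CPM with thapsigargin and 0.0423 and 0.0482 CPM with DMSO at 12 h, against 8.13, 9.21 and 7.37 CPM with thapsigargin and 1.56, 1.84 and 2.15 CPM with DMSO at 2 h, so its level was lower at 12 h in both arms while its response was called higher (adjusted p = 0.002), and its DMSO libraries at 12 h held 2 counts in all.

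**Figure D2:**
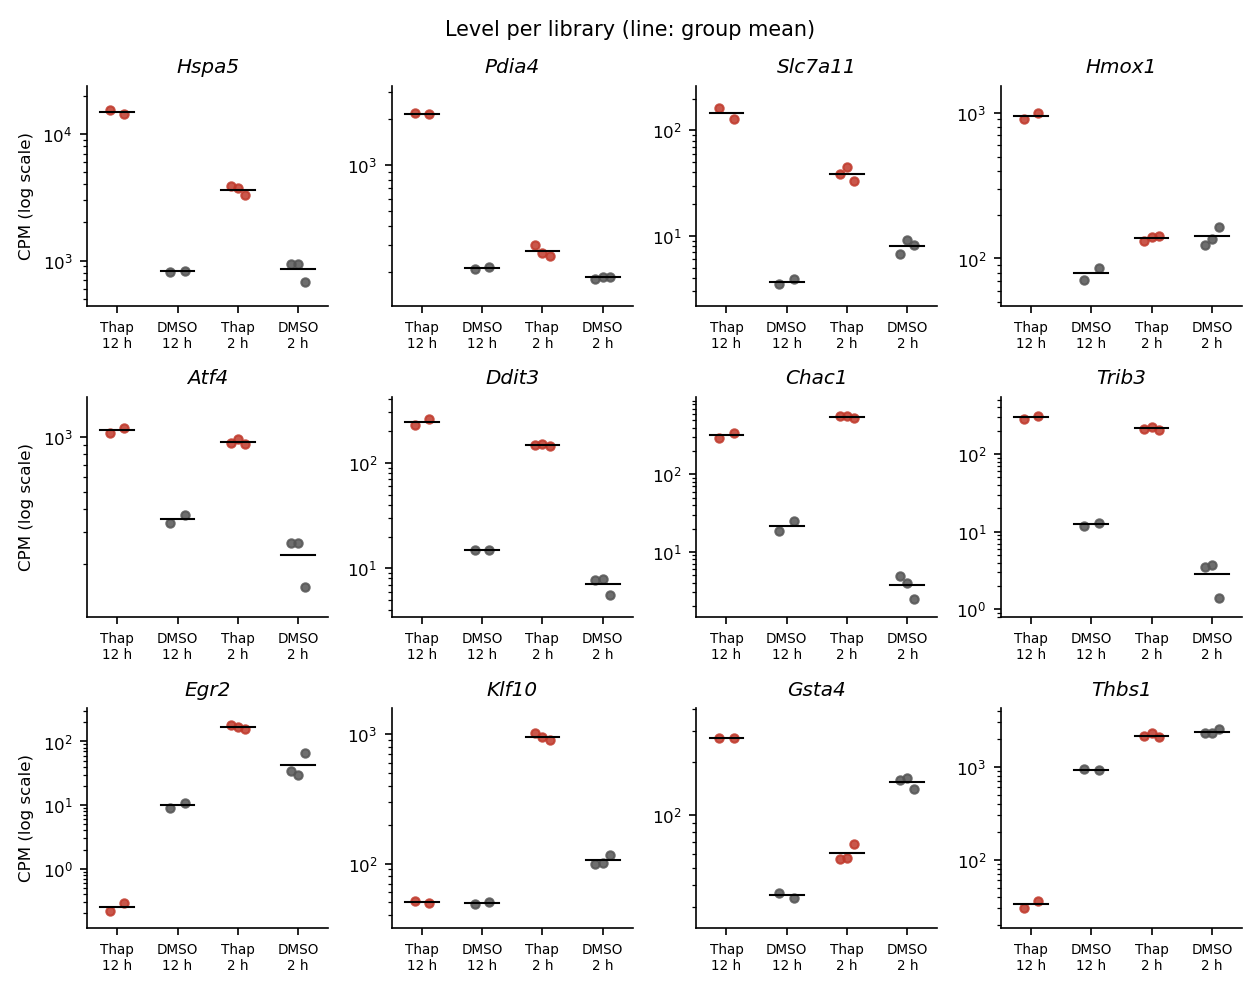
Level of 12 genes in each of the 10 libraries, in CPM on a log axis, with thapsigargin in red, DMSO in grey and a line at each group's mean. Hspa5, Pdia4, Slc7a11 and Hmox1 are highest with thapsigargin at 12 h, Atf4 and Ddit3 have similar gaps between drug and vehicle at both hours, and Chac1 and Trib3 have their lowest levels with DMSO at 2 h. Egr2 and Thbs1 are lowest with thapsigargin at 12 h.

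Enzymes of amino acid synthesis and one-carbon metabolism had 9 of 16 members with a higher response at 12 h and 0 with a lower one, and amino acid transporters 7 of 12 higher and 1 lower, Slc38a2 (-0.75). The count for synthesis was 5 without DMSO 12 h replicate 1. Aldh1l2 (ENSMUSG00000020256.14, chr10:83487450-83534140, minus strand, GRCm38), a mitochondrial folate enzyme, stood at 1115 and 1052 CPM with thapsigargin and 55.3 and 55.5 CPM with DMSO at 12 h, against 154, 166 and 143 CPM with thapsigargin and 83.2, 99.2 and 99.5 CPM with DMSO at 2 h. Its drug libraries at 12 h lay far above all others, with an induction of 19.6-fold at 12 h and 1.64-fold at 2 h and a response change of 3.57 ± 0.17 (adjusted p = 3.1e-06). Pycr1, which makes proline, stood at 61.8 and 68.6 CPM with thapsigargin and 6.65 and 7.23 CPM with DMSO at 12 h, against 12.5, 12.3 and 11.9 CPM with thapsigargin and 10.4, 9.02 and 13.3 CPM with DMSO at 2 h. It was not called at 2 h (0.17, adjusted p = 0.43) and was 9.40-fold higher at 12 h. Cth, which makes cysteine, changed by 2.28 ± 0.41. Asns, the asparagine synthetase long used to follow ATF4, changed by 1.24 ± 0.19 (adjusted p = 0.0016), with 2.06 at 12 h and 0.82 at 2 h.

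Slc7a11 (ENSMUSG00000027737.10, chr3:49892526-50443614, minus strand, GRCm38) encodes xCT, the exchanger that imports cystine, and Slc3a2 encodes the heavy chain that pairs with it. Slc7a11 stood at 163 and 127 CPM with thapsigargin and 3.47 and 3.90 CPM with DMSO at 12 h, against 38.5, 45.1 and 33.0 CPM with thapsigargin and 6.78, 9.22 and 8.17 CPM with DMSO at 2 h. It was highest with thapsigargin at 12 h and lowest with DMSO at 12 h, with a response change of 3.03 ± 0.27 (adjusted p = 7e-05). Slc3a2 stood at 2440 and 2741 CPM with thapsigargin and 111 and 117 CPM with DMSO at 12 h, against 454, 462 and 415 CPM with thapsigargin and 162, 165 and 128 CPM with DMSO at 2 h, with a response change of 2.96 ± 0.19 (adjusted p = 1.2e-05). The glycine transporter Slc6a9 changed by 2.62 ± 0.20. Cytosolic tRNA synthetases, which charge tRNAs with amino acids, had 11 of 20 members higher in the response change and 0 lower, with a median of 0.54, but 6 without either DMSO 12 h library, 7 without thapsigargin 12 h replicate 2 or any thapsigargin library at 2 h, and 6 with library totals as the scaling. Wars, for tryptophan, led them at 2.07 ± 0.17, and stood at 485 and 510 CPM with thapsigargin and 88.0 and 88.2 CPM with DMSO at 12 h, against 144, 159 and 139 CPM with thapsigargin and 116, 119 and 93.4 CPM with DMSO at 2 h.

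The motif read by CEBP-ATF pairs, TGATGNAA, was searched in the same promoters on both strands. It was in 46 of the 1086 genes with a higher response at 12 h (4.24%), in 45 of 1434 with a lower one (3.14%), in 251 of 8782 not called (2.86%) and in 4.51% of all promoters in the table. Among all genes tested that had a promoter the share was 3.03%. It was in 16 of the 139 genes (11.5%) that were higher at both hours and more so at 12 h. Genes that hold it moved both ways. Chac1 and Trib3, with smaller inductions at 12 h, hold it, as do Slc7a11, Pycr1, Asns and Fgf21, with larger ones. The element that XBP1 is known to bind, TGACGTGG, was in 29 of the 1086 genes with a higher response (2.67%), in 9 of the 1434 with a lower one (0.628%), in 75 of those not called (0.854%) and in 0.714% of all promoters in the table. The promoters of Chac1, Trib3, Slc7a11 and Pycr1 are printed 5′ to 3′ in the sense of the gene for that reason, with TGATGNAA or its reverse complement in capitals. It begins 193 bases before the start in Chac1 (reversed), 15 bases after it in Trib3 (reversed), at 66 and, reversed, at 47 bases before it in Slc7a11, and at 103 bases before it in Pycr1.
Chac1, chr2:119350992-119351291, plus strand: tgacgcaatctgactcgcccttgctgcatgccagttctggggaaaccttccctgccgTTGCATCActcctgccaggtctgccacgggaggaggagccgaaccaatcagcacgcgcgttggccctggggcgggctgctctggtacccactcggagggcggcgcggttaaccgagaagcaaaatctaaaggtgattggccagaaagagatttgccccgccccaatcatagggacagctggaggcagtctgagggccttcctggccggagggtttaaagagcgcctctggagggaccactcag
Trib3, chr2:152344011-152344310, minus strand: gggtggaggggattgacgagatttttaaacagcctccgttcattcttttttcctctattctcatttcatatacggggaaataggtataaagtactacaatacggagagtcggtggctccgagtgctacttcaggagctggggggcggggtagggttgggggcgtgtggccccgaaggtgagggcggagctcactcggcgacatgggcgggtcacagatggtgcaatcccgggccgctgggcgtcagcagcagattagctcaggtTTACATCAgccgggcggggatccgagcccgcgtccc
Slc7a11, chr3:50443564-50443863, minus strand: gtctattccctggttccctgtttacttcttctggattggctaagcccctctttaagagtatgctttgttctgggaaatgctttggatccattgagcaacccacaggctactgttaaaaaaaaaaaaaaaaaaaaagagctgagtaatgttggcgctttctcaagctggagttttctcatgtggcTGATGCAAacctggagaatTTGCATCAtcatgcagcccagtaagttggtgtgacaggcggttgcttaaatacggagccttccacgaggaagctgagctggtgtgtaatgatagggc
Pycr1, chr11:120643699-120643998, minus strand: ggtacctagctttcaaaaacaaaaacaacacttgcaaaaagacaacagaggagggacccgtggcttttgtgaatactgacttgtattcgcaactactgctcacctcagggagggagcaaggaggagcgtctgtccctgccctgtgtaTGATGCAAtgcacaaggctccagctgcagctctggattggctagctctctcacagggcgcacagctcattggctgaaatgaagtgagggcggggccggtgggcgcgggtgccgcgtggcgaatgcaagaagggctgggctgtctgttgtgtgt

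Immediate early genes had 15 of 25 members with a lower response at 12 h and 0 with a higher one. At 2 h 19 were higher with thapsigargin and 1 lower, and at 12 h 3 were higher and 9 lower. In vehicle-treated cells 20 of the 25 were lower at 12 h than at 2 h, beside 14.4% of all genes tested, so the baseline moved as well. Egr2 (ENSMUSG00000037868.15, chr10:67535475-67542188, plus strand, GRCm38), a zinc finger factor induced by growth signals, stood at 0.217 and 0.293 CPM with thapsigargin and 9.02 and 10.8 CPM with DMSO at 12 h, against 180, 166 and 156 CPM with thapsigargin and 34.4, 29.8 and 65.6 CPM with DMSO at 2 h. Its 2 libraries with thapsigargin at 12 h lay below all the others, and the 3 with thapsigargin at 2 h above all the others. Thapsigargin lowered it 37.9-fold at 12 h and raised it 3.87-fold at 2 h, a response change of -7.20 ± 0.58 (adjusted p = 4.4e-05). Egr1 stood at 4.94 and 4.64 CPM with thapsigargin and 125 and 125 CPM with DMSO at 12 h, against 1335, 1347 and 1240 CPM with thapsigargin and 100, 85.5 and 374 CPM with DMSO at 2 h, with a response change of -7.51 ± 0.84 (adjusted p = 0.00025), or -8.55 without DMSO 2 h replicate 3, its highest vehicle library. Egr3 changed by -6.11 ± 0.54 (adjusted p = 7e-05) and had opposite signs too, -4.52 at 12 h and 1.59 at 2 h. Fos, the AP-1 subunit, also lay below DMSO at 12 h (-1.69) and above it at 2 h (2.04).

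Klf10, a factor of TGF-beta signalling, stood at 51.0 and 49.3 CPM with thapsigargin and 49.0 and 50.1 CPM with DMSO at 12 h, against 1030, 956 and 897 CPM with thapsigargin and 100, 101 and 117 CPM with DMSO at 2 h. Drug and vehicle overlapped at 12 h, and its 9.07-fold induction at 2 h had no counterpart (-3.16 ± 0.16, adjusted p = 4.2e-06). Gadd45b and Gadd45g, stress sensors that feed p38 and JNK, were likewise induced at 2 h and not called at 12 h, at -3.25 ± 0.32 and -3.10 ± 0.37, and so did Lif, a cytokine, at -3.05 ± 0.17. Fosb, another AP-1 subunit, changed by -3.27 ± 0.51 and was not called at 12 h. Jun was called closest to the threshold, at -1.31 ± 0.41 (adjusted p = 0.048). It stood at 100 and 108 CPM with thapsigargin and 159 and 161 CPM with DMSO at 12 h, against 614, 601 and 618 CPM with thapsigargin and 282, 267 and 587 CPM with DMSO at 2 h, with DMSO 2 h replicate 3 close to the drug libraries of that hour. It lost its call when any library but DMSO 2 h replicate 3 was left out. Ier3 and Myc were higher with thapsigargin at both hours, with response changes that were not called (0.07 and -0.06, or -0.80 for Myc without DMSO 2 h replicate 3).

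Feedback genes of MAP kinase signalling had 12 of 17 members lower in the response change and 0 higher, with 7 lower without DMSO 12 h replicate 1. In DMSO 14 of the 17 were lower at 12 h than at 2 h, beside 14.4% of all genes tested. Errfi1, an inhibitor of the EGF receptor, stood at 49.7 and 47.4 CPM with thapsigargin and 229 and 229 CPM with DMSO at 12 h, against 1597, 1546 and 1326 CPM with thapsigargin and 663, 640 and 758 CPM with DMSO at 2 h. It was above DMSO at 2 h and below it at 12 h, with a response change of -3.35 ± 0.17 (adjusted p = 4.7e-06). Dusp2, a phosphatase of ERK, changed by -4.37 ± 0.72, Spry4, a Sprouty inhibitor, by -3.21 ± 0.18 and Dusp6, the cytosolic ERK phosphatase, by -2.63 ± 0.13. The other 5 members were not called.

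The circadian clock list had 10 of 16 members with a lower response at 12 h and 0 with a higher one, with 11 higher with thapsigargin at 2 h and 4 higher and 6 lower at 12 h. The count of lower responses was 5 without thapsigargin 12 h replicate 2 and 6 without DMSO 12 h replicate 1. Per3, a repressor of the clock, stood at 5.65 and 5.67 CPM with thapsigargin and 24.0 and 23.6 CPM with DMSO at 12 h, against 22.5, 19.3 and 19.8 CPM with thapsigargin and 14.1, 12.0 and 12.9 CPM with DMSO at 2 h. Thapsigargin lowered it at 12 h and raised it a little at 2 h (-2.73 ± 0.18, adjusted p = 1.4e-05). Dbp, an output factor of the clock, changed by -3.15 ± 0.26, and its vehicle level was higher at 12 h (1.53). Nfil3, the repressor that opposes Dbp, stayed induced at both hours, by 2.83 at 12 h and 3.95 at 2 h, and its response change was -1.12 ± 0.24. Among the other bZIP factors, Cebpa fell by 2.71 on the log2 scale with thapsigargin at 12 h and was not called at 2 h, while Cebpd changed by 2.13 ± 0.24, with 2.59 at 12 h and 0.46 at 2 h.

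NF-kB feedback genes, chemokines and cytokines had 11 of 23 members lower in the response change and 4 higher. Nfkbia, the inhibitor that shuts NF-kB off, was 3.73-fold higher with thapsigargin at 2 h and not called at 12 h (-2.47 ± 0.28). The chemokines Ccl2, Ccl7 and Cxcl5 were induced at 2 h alone, at -2.23, -1.69 and -1.52 in the response change, while their vehicle levels were higher at 12 h than at 2 h by 3.73, 3.44 and 6.76. Il6 went the other way and stood at 21.4 and 15.9 CPM with thapsigargin and 1.14 and 0.915 CPM with DMSO at 12 h, against 1.71, 1.59 and 2.11 CPM with thapsigargin and 1.32, 1.45 and 1.15 CPM with DMSO at 2 h, a response change of 3.71 ± 0.32 (adjusted p = 6.4e-05). Il33, a cytokine held in the nucleus, stood at 5.92 and 4.25 CPM with thapsigargin and 149 and 129 CPM with DMSO at 12 h, against 76.8, 79.1 and 80.1 CPM with thapsigargin and 109, 123 and 208 CPM with DMSO at 2 h and was lower with thapsigargin at both hours, far more at 12 h (-3.87 ± 0.37, adjusted p = 0.00011). Ptgs2, the inducible cyclooxygenase, changed by 2.38 ± 0.27.

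Antioxidant genes that the factor NRF2 is known to drive had 12 of 20 members higher in the response change and 1 lower, and 12 of 20 were lower with DMSO at 12 h than at 2 h. Of all genes tested 8.59% were higher and 11.6% lower in the response change, and 14.4% were lower with DMSO at 12 h. Hmox1 (ENSMUSG00000005413.8, chr8:75093621-75100589, plus strand, GRCm38), which degrades haem, stood at 910 and 1001 CPM with thapsigargin and 71.5 and 86.4 CPM with DMSO at 12 h, against 132, 140 and 142 CPM with thapsigargin and 124, 136 and 165 CPM with DMSO at 2 h. It was not called at 2 h and was 12.1-fold higher at 12 h, a response change of 3.64 ± 0.20 (adjusted p = 6.4e-06). Gsta4, a glutathione transferase, stood at 271 and 272 CPM with thapsigargin and 36.0 and 33.5 CPM with DMSO at 12 h, against 56.2, 57.0 and 68.1 CPM with thapsigargin and 158, 161 and 139 CPM with DMSO at 2 h. It had opposite responses, 7.81-fold higher at 12 h and 2.53-fold lower at 2 h, and a response change of 4.30 ± 0.17 (adjusted p = 1.2e-06), with 2.17 in the drug arm and -2.13 in the vehicle arm. Txnrd1, the thioredoxin reductase, changed by 1.10 ± 0.13, while Nqo1, a classic NRF2 target, was not called (0.55, adjusted p = 0.21).

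DNA replication and G1/S genes had 23 of 28 members lower in the response change, and mitosis genes 16 of 25, with 0 higher in either list. With thapsigargin 26 of the 28 and 24 of the 25 were lower at 12 h, and 7 and 3 were lower at 2 h. Without DMSO 2 h replicate 3 the response change was lower for 27 of 28 and 25 of 25, and in the fit over 19 libraries for 6 of 28 and 4 of 25. Ccnd1, which encodes cyclin D1, stood at 32.0 and 32.1 CPM with thapsigargin and 286 and 289 CPM with DMSO at 12 h, against 218, 229 and 228 CPM with thapsigargin and 324, 329 and 364 CPM with DMSO at 2 h. The drug lowered it 8.98-fold at 12 h and 1.51-fold at 2 h (-2.58 ± 0.13, adjusted p = 4.8e-06). Uhrf1, which keeps DNA methylation through replication, changed by -1.88 ± 0.18 and stood at 83.6 and 88.1 CPM with thapsigargin and 284 and 294 CPM with DMSO at 12 h, against 253, 262 and 249 CPM with thapsigargin and 253, 251 and 193 CPM with DMSO at 2 h. Aurkb, a mitotic kinase, changed by -1.56 ± 0.20, Kif11, a spindle motor, by -1.36 ± 0.17 and Ttk, a checkpoint kinase, by -1.74 ± 0.13.

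Extracellular matrix genes had 15 of 26 members lower in the response change and 5 higher, with 3 higher without DMSO 12 h replicate 2. Thbs1 (ENSMUSG00000040152.8, chr2:118111876-118127133, plus strand, GRCm38), the secreted thrombospondin-1, stood at 30.4 and 35.9 CPM with thapsigargin and 934 and 911 CPM with DMSO at 12 h, against 2117, 2290 and 2070 CPM with thapsigargin and 2314, 2276 and 2571 CPM with DMSO at 2 h. Drug and vehicle overlapped at 2 h, and at 12 h the drug libraries were 27.8-fold lower than DMSO (-4.65 ± 0.17, adjusted p = 1.2e-06). Ccn2, a target of YAP signalling, stood at 6.52 and 8.94 CPM with thapsigargin and 40.4 and 48.2 CPM with DMSO at 12 h, against 505, 580 and 675 CPM with thapsigargin and 397, 377 and 419 CPM with DMSO at 2 h, with a response change of -3.08 ± 0.24, and Col6a1, a collagen VI chain, changed by -2.70 ± 0.19. The 5 members with a higher response at 12 h were Col3a1, Col5a2, Sparc, Fbn1 and Dcn. Thapsigargin lowered Fbn1, fibrillin-1, at 2 h (-1.33), and at 12 h it was not called (0.13).

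**Figure D3:**
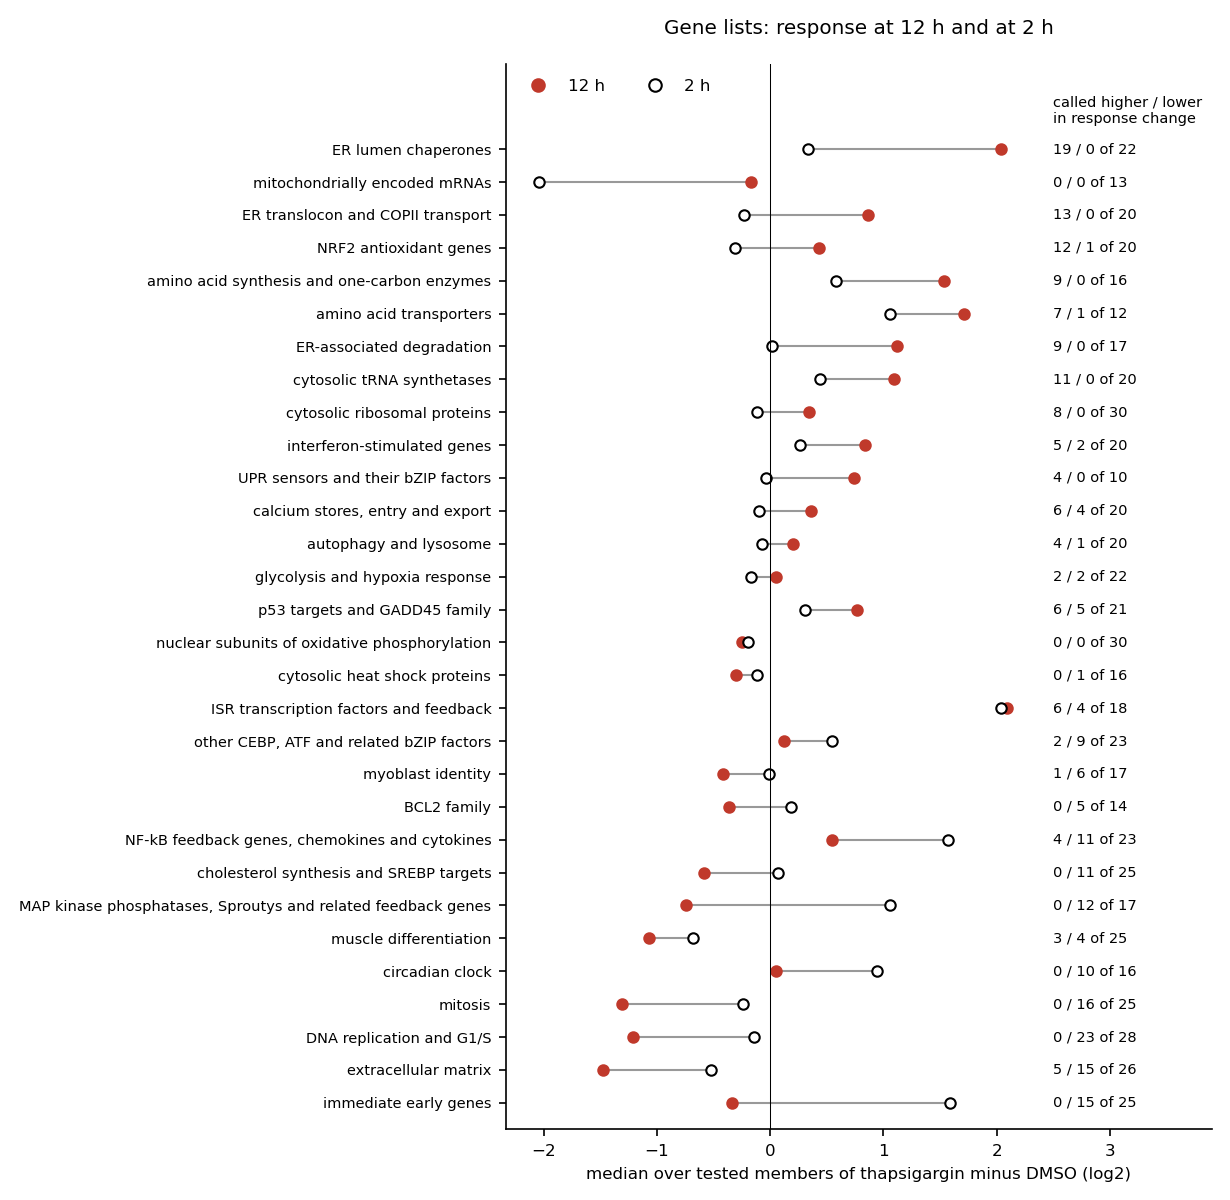
Median over the tested members of each gene list of thapsigargin minus DMSO, in log2 units, with filled red circles for 12 h and open circles for 2 h. Lists run from the highest median response change (ER lumen chaperones, 1.83) to the lowest (immediate early genes, -1.54). The numbers at the right give the members called higher and lower in the response change, of those tested. Of the mitochondrially encoded mRNAs, which DMSO 2 h replicate 3 holds in excess, 0 of 13 were called.

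Cholesterol synthesis genes and other SREBP targets had 11 of 25 members lower in the response change and 0 higher, and 14 of 25 were higher with DMSO at 12 h than at 2 h, beside 9.62% of all genes tested. The count of lower responses was 6 without thapsigargin 12 h replicate 1 or DMSO 12 h replicate 1, 7 without DMSO 12 h replicate 2, 18 without DMSO 2 h replicate 3 and 0 in the fit over 19 libraries. Insig1, which holds SREBP in the ER when sterols are plentiful, was 2.22-fold higher with thapsigargin at 2 h and not called at 12 h, with a response change of -1.47 ± 0.26 (adjusted p = 0.0033). In the BCL2 family 5 of 14 were lower and 0 higher, where 11.6% of all genes tested were lower and 8.59% higher. Bcl2l11 (BIM) and Bmf, both pro-apoptotic, had opposite responses at the hours. Bcl2l11 stood at 15.3 and 13.4 CPM with thapsigargin and 31.6 and 32.7 CPM with DMSO at 12 h, against 86.9, 83.7 and 95.1 CPM with thapsigargin and 26.4, 25.9 and 21.9 CPM with DMSO at 2 h, and its response change was -3.00 ± 0.18 (adjusted p = 8.8e-06). Bmf changed by -5.02 ± 0.87, and the pro-survival Bcl2 by -1.30 ± 0.20. The 21 p53 and GADD45 genes split, with 6 higher and 5 lower (3 higher without DMSO 12 h replicate 1).

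Myoblast identity genes had 6 of 17 members lower in the response change and 1 higher, Myf5, a myogenic factor. Myf5 stood at 234 and 228 CPM with thapsigargin and 29.2 and 29.8 CPM with DMSO at 12 h, against 98.2, 107 and 81.8 CPM with thapsigargin and 34.2, 37.1 and 57.9 CPM with DMSO at 2 h. It was higher with thapsigargin at both hours and more so at 12 h (1.82 ± 0.30, adjusted p = 0.0021). Msc, musculin, changed by -3.56 ± 0.73 and lost its call without thapsigargin 12 h replicate 2. Of 25 muscle differentiation genes 4 were lower and 3 higher, near the 11.6% and 8.59% of all genes tested. With DMSO 22 of them were lower at 12 h than at 2 h, beside 14.4% of all genes tested. The lower count was 7 without thapsigargin 12 h replicate 2 or DMSO 12 h replicate 2, 12 without DMSO 2 h replicate 3 and 10 with library totals. Myh7, a slow myosin chain, had 2.01 and 2.10 CPM with thapsigargin and 0 counts with DMSO at 12 h, at least 30.5-fold higher against a floor of 3 counts over the group, against 1.30, 0.809 and 0.542 CPM with thapsigargin and 0.750, 0.830 and 0.481 CPM with DMSO at 2 h.

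Cytosolic ribosomal protein genes had 8 of 30 members higher in the response change and 0 lower, and 29 without DMSO 2 h replicate 3. Leaving out any library at 12 h or thapsigargin at 2 h left 1 to 4. Their values were small, such as 0.78 ± 0.12 for Rps6, and only 2 were called with library totals as the scaling. Long transcripts (from 2129 bases) and short ones (up to 963 bases) were compared in each library, each gene relative to its own mean over the 10 libraries. On that relative scale long ones lay above short ones by 0.13 to 0.19 in the thapsigargin libraries at 2 h and by 0.24 in DMSO 2 h replicate 3. The difference was -0.07 to -0.21 in the other 6 (medians, log2). A fit with a length term called 8 of the 30 as well. Of all genes tested 8.59% were called higher and 11.6% lower, and without DMSO 2 h replicate 3 21.3% and 25.3%. The list counts that follow stand beside those shares. Nuclear subunits of oxidative phosphorylation had 0 of 30 called, and 13 higher and 1 lower without DMSO 2 h replicate 3. Of 16 cytosolic heat shock proteins 1 was lower, Dnajb1 (-0.74 ± 0.18), which lost its call without thapsigargin 12 h replicate 1 or either DMSO 12 h library. With DMSO 2 h replicate 3 left out, 7 were lower and 3 higher. Autophagy genes had 4 of 20 higher, led by Sqstm1, an autophagy receptor, at 1.39 ± 0.25, and 1 lower, Tfeb (-1.90 ± 0.23), and 12 were higher without DMSO 2 h replicate 3. Glycolysis and hypoxia genes had 2 of 22 each way, near the shares of all genes. Without DMSO 2 h replicate 3 they had 11 higher, above that fit's share, and 4 lower, below it. Interferon-stimulated genes had 5 of 20 higher and 2 lower, and the higher count was 0 without thapsigargin 12 h replicate 2 or either DMSO 12 h library, 1 without thapsigargin 12 h replicate 1 or thapsigargin 2 h replicate 2, 2 without thapsigargin 2 h replicate 1 and 8 without DMSO 2 h replicate 3.

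Outside the lists, the largest higher response was that of Sspo, which encodes SCO-spondin. It stood at 41.9 and 49.5 CPM with thapsigargin and had 0 counts with DMSO at 12 h, at least 676-fold higher there, against 0.367, 0.470 and 0.120 CPM with thapsigargin and 0.330, 0.00 and 0.00 CPM with DMSO at 2 h. Its call (adjusted p = 0.0091) was lost without DMSO 2 h replicate 1, the only vehicle library at 2 h with counts. Avil, advillin, an actin-binding protein, stood at 212 and 217 CPM with thapsigargin and 0.847 and 1.69 CPM with DMSO at 12 h, against 3.65, 4.05 and 4.21 CPM with thapsigargin and 3.09, 2.85 and 3.62 CPM with DMSO at 2 h. It responded 171-fold at 12 h and was not called at 2 h (7.10 ± 0.31, adjusted p = 2e-06). The 12 h drug libraries stood apart from all 8 others. Car6, a secreted carbonic anhydrase, stood at 173 and 173 CPM with thapsigargin and 0.127 and 0.0482 CPM with DMSO at 12 h, against 1.84, 1.57 and 1.65 CPM with thapsigargin and 0.120, 0.119 and 0.00 CPM with DMSO at 2 h, and its response was higher at 12 h by 6.54 ± 0.93 (adjusted p = 0.00096). Elmo1, a regulator of Rac, stood at 45.2 and 45.3 CPM with thapsigargin and 1.23 and 1.01 CPM with DMSO at 12 h, against 1.25, 1.36 and 0.722 CPM with thapsigargin and 1.29, 0.979 and 2.47 CPM with DMSO at 2 h. Its response change was 5.82 ± 0.53 (adjusted p = 8.1e-05). Prg4, Gsta1, Tfcp2l1, Otog and Il23a complete the 10 highest with Atp2a3 and those named. Prg4, lubricin, had 3.63, 3.53 and 20.2 CPM with DMSO at 2 h, and its response change was 5.15 without replicate 3 and 6.52 with it. Gsta1 has near-identical relatives, and how its reads were assigned is not given in the sources used here.

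Among the largest lower responses outside the lists, Cd300lb, a myeloid receptor gene, had 0 counts with thapsigargin and 5.55 and 4.53 CPM with DMSO at 12 h, at least 65.3-fold lower, against 1.08, 0.992 and 0.993 CPM with thapsigargin and 3.54, 3.32 and 2.56 CPM with DMSO at 2 h. Ranbp3l, a nuclear export factor, stood at 0.815 and 0.928 CPM with thapsigargin and 46.5 and 45.5 CPM with DMSO at 12 h, against 50.7, 42.2 and 56.1 CPM with thapsigargin and 35.3, 27.8 and 53.7 CPM with DMSO at 2 h. Its drug libraries at 12 h lay far below all others (-6.06 ± 0.42, adjusted p = 1.9e-05). Tcim, a regulator of Wnt signalling, stood at 2.06 and 1.61 CPM with thapsigargin and 10.1 and 10.1 CPM with DMSO at 12 h, against 56.6, 43.6 and 60.4 CPM with thapsigargin and 6.30, 4.24 and 4.74 CPM with DMSO at 2 h, above DMSO at 2 h and below it at 12 h (-5.85 ± 0.31, adjusted p = 5.2e-06). Nptx1, neuronal pentraxin 1, changed by -5.27 ± 0.26, Angpt1, the angiopoietin that activates the receptor Tie2, by -5.38 ± 0.24 and Gprin3 by -5.71 ± 0.70 (-6.35 without DMSO 2 h replicate 3). Egr1, Egr2 and Egr3, given above, were also among the 10 lowest.

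Because each response has its own vehicle, the response change equals the difference between the hours in drug-treated cells (the drug arm) minus that in vehicle-treated cells (the vehicle arm). In the drug arm 7569 genes (45.6%) were called and in the vehicle arm 3985 (24.0%), so cells with DMSO alone also differed between the hours. Without DMSO 2 h replicate 3 the vehicle arm had 7464 calls, and without either DMSO 12 h library 1627 or 1662. The hour and the set of libraries cannot be told apart in either arm. Of the 1426 genes with a higher response at 12 h, 1020 were called the same way in the drug arm alone, 242 the opposite way in the vehicle arm alone, 119 in both and 45 in neither. Their medians were 1.12 for the response change, 0.91 for the drug arm and -0.19 for the vehicle arm. Of the 1927 with a lower response, 1443 were called in the drug arm alone, 236 in the vehicle arm alone, 212 in both and 36 in neither, and the medians were -1.25, -1.19 and 0.05 in the same order. Tnfsf15, a TNF family ligand, is a gene of the vehicle kind and stood at 17.6 and 15.1 CPM with thapsigargin and 2.08 and 1.88 CPM with DMSO at 12 h, against 10.0, 12.7 and 13.3 CPM with thapsigargin and 23.9, 23.0 and 30.1 CPM with DMSO at 2 h. Its drug arm differed by 0.44 (adjusted p = 0.055) and its vehicle arm by -3.69, and the response change was 4.14 ± 0.26 (adjusted p = 1.2e-05). Irf1, an interferon factor, had parts of both kinds, -0.86 in the drug arm and 1.34 in the vehicle arm.

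**Figure D4:**
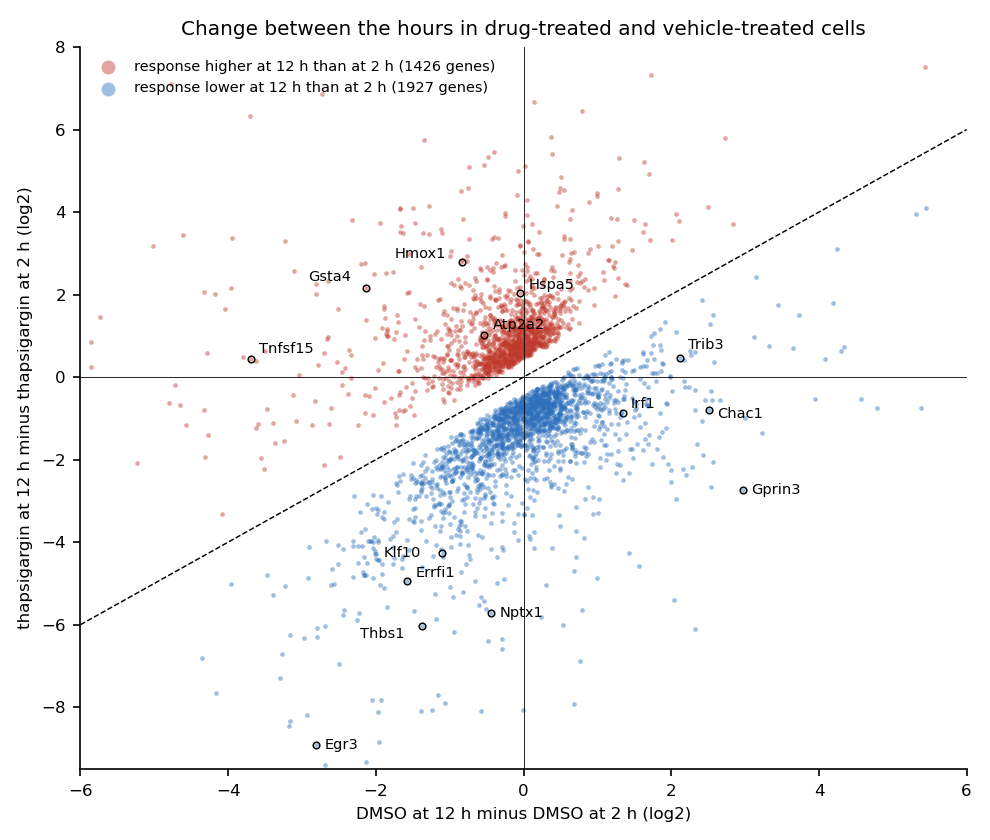
Each point is a gene called in the response change, with DMSO at 12 h minus DMSO at 2 h on the x axis and thapsigargin at 12 h minus thapsigargin at 2 h on the y axis (log2). The height above the dashed line is the response change, which these values share. Most points spread along the y axis (medians 0.91 for red and -1.19 for blue), while Chac1, Trib3 and Tnfsf15 lie far to the side. 19 called genes lie outside the axes.

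The libraries at 6 h, which took no part in the response change, were read from a fit over all 19 libraries. Pairs within the 6 h groups correlated at 0.9183 to 0.9937 (log2 levels, across genes). By this measure some 6 h replicates differed at least as much as DMSO 2 h replicate 3 did from its group. Among the genes with a higher response at 12 h, the median of thapsigargin minus DMSO was -0.19 at 2 h, 0.61 at 6 h and 0.92 at 12 h, and for 1062 (74.5%) the 6 h value lay between the other two. For the genes with a lower response the medians were 0.10, -0.56 and -1.14, and the 6 h value lay between for 1449 (75.2%). Of genes not called it lay between for 32.5%, and the large gap that a call requires enters these shares. Single genes took different courses. Hmox1 stood at -0.05 at 2 h, 3.80 at 6 h and 3.57 at 12 h, Gsta4 at -1.36, 0.01 and 2.94, and Chac1 at 7.18, 3.66 and 3.86. In this fit the 6 h values of Hmox1 and Chac1 thus lay within 1 SE of their 12 h values, while that of Gsta4 did not.

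**Figure D5:**
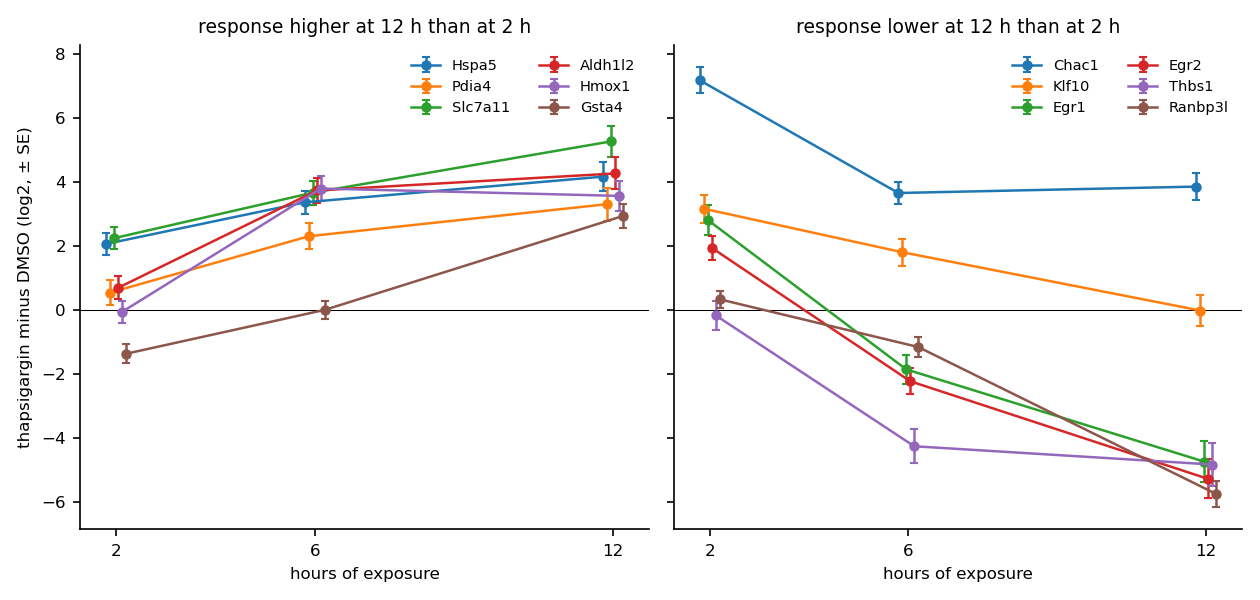
Thapsigargin minus DMSO (log2, points, with the SE of the fit over all 19 libraries as bars) at 2, 6 and 12 h for 6 genes with a higher and 6 with a lower response at 12 h. Slc7a11 and Hspa5 climb over the 3 hours, Hmox1 and Thbs1 are near their 12 h value at 6 h, Chac1 stays induced at a lower level, and Egr1, Egr2 and Ranbp3l pass below 0.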

How the data were processed

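Poly(A) RNA of C2C12 cells was sequenced by the submitters. The submitters' processing notes name Trim Galore, STAR 2.5.3a, bedtools 2.31.0, DESeq2 and the build mm10. How reads were counted, with which annotation and strand setting, is not given in the sources used here. Each library has a table of raw counts per gene, which the authors deposited without normalization. Of 55401 gene IDs, 55141 matched GENCODE M21 (GRCm38), which supplied symbols and positions, and 5 lines of unassigned reads stayed out of totals and tests. Groups came from the labels. Genes were kept by edgeR's filterByExpr, scaled by TMM and fitted in edgeR 4.0.16 (R 4.3.3, limma 3.58.1) with a mean per group and 6 residual degrees of freedom. The response change and its parts were tested with the two-sided quasi-likelihood test at a Benjamini-Hochberg adjusted p under 0.05. The test of the response change was also run on simulated counts. These drew all libraries of a group alike, so they do not cover a library that stands apart, such as DMSO 2 h replicate 3. DESeq2 1.42.0 was an alternative, beside others of scaling, filter, transcript length, libraries and a replicate block. CPM values are counts scaled by TMM to a library total of 1000000. SE were derived from the test, as the absolute log2 estimate divided by the square root of its F statistic.

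The genes named are a fixed panel, the 10 highest and 10 lowest response changes, the 4 largest of each class and up to 3 called members of each list. The 10 highest, the 10 lowest and those of each class needed responses without overlap between the hours and at least 5 CPM in a group. The panel and the list members did not. Some genes that this rule takes are not reported here. Members and lists were chosen with earlier results of these data known, and other list members named were chosen after their values were seen. Python 3.11.15, numpy 2.4.6, pandas 2.3.3 and scipy 1.17.1 were used.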

Additional observations from a re-analysis of the deposited data

Results flagged for a closer look

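Thapsigargin moved the level in opposite directions at the hours in 19 of the named genes, those of the marker lists of other cell types not counted. The difference itself passed edgeR's quasi-likelihood test. Over all calls, 215 of the 1927 lower responses (11.2%) and 135 of the 1426 higher ones (9.47%) had opposite signs. The naming rule takes the 4 largest genes of each such class, so part of the 19 were named for this trait. Below DMSO at 12 h and above it at 2 h stood Egr1 (response change -7.51), Egr2 (-7.20), Egr3 (-6.11), Tcim (-5.85), Bmf (-5.02), Errfi1 (-3.35), Spry4 (-3.21), Dbp (-3.15), Ccn2 (-3.08), Bcl2l11 (-3.00), Per3 (-2.73) and Id1, an inhibitor of myogenic factors (-1.46). Above DMSO at 12 h and below it at 2 h stood Gsta4 (4.30), Tnfsf15 (4.14), Tsku (3.28), Tmem45a (3.02), Ssr2 (1.81), Atp2a1, the calcium pump SERCA1 (1.75), and Rps6 (0.78). Tsku, the secreted proteoglycan Tsukushi, stood at 66.6 and 73.1 CPM with thapsigargin and 19.2 and 19.6 CPM with DMSO at 12 h, against 13.6, 12.5 and 13.8 CPM with thapsigargin and 29.1, 28.4 and 50.2 CPM with DMSO at 2 h. Tmem45a, a transmembrane protein gene, stood at 77.1 and 65.3 CPM with thapsigargin and 14.7 and 14.2 CPM with DMSO at 12 h, against 7.69, 8.93 and 9.69 CPM with thapsigargin and 13.4, 12.9 and 16.9 CPM with DMSO at 2 h. In both genes the drug libraries lay above DMSO at 12 h and below DMSO at 2 h, with no overlap at either hour.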

How the results depend on the processing

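The response change called 3353 genes, and most settings moved this count little: 3340 with DESeq2's size factors in edgeR, 3344 with library totals, 3818 without the filter on low counts, 3483 with a stricter one, 3354 without mitochondrially encoded genes, 3439 with a transcript length term (1801 higher, 1638 lower) and 3779 with DESeq2. Library totals gave 845 higher calls. A fit over all 19 libraries called 916 (347 higher, 569 lower), with 2356 at 12 h, 816 at 2 h, 3904 in the drug arm and 1293 in the vehicle arm. Without both libraries of high mitochondrial share, a setting chosen after seeing the data, that fit called 823 higher in the response change, 1859 at 2 h and 2251 in the vehicle arm. Leaving out 1 library at a time gave 1868 (DMSO 12 h replicate 1) to 7655 (DMSO 2 h replicate 3) calls, 679 to 3498 higher and 1189 to 4157 lower, with 3187 to 9289 at 12 h, 1861 to 8222 at 2 h and 1627 to 7464 in the vehicle arm. A 12 h group then holds 1 library, which is assumed to vary like the other groups. The common biological coefficient of variation was 0.178 in all 10 libraries and 0.0548 without DMSO 2 h replicate 3. Deviations from the group mean in same-numbered drug and vehicle libraries correlated at -0.12 to -0.01 across genes. With 2 libraries in a 12 h group these deviations mirror each other, so r there has a single size with either sign. At 2 h the r values are bound to each other as well. They therefore cannot decide whether libraries were paired. A replicate block gave 3222 calls (1336 higher, 1886 lower). The titles number the thapsigargin 12 h libraries 1 and 2, but their deposited tables carry the numbers 2 and 3. By those, replicate 1 would pair with DMSO 12 h replicate 2 (r = 0.09, by construction the mirror of -0.09 for the titled pair). Which libraries belong together at 12 h is thus uncertain. Of the 130 named genes called, 0 changed sign under any setting and 82 kept their call in the 19-library fit. Over all 3353 calls that share was lower, 910 (27.1%) with the same sign. Many named genes were picked for large changes in these same libraries, so their counts say little about the other calls. Atf3, not called, changed sign with the length term (0.03), without DMSO 2 h replicate 3 (0.14, of a range from -0.25) and in the setting chosen later (0.11). Depth at 12 h, with fewer counts and 2 libraries a group, limits genes of few counts, and the cause of these shifts was not tested.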

Other observations

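The bZIP factors that bind with ATF4 or beside it had 9 of 23 members with a lower response at 12 h and 2 with a higher one (6 lower without DMSO 12 h replicate 1, 13 without DMSO 2 h replicate 3). The PAR bZIP factors of the clock's output were among them. Hlf stood at 2.39 and 2.59 CPM with thapsigargin and 10.8 and 9.68 CPM with DMSO at 12 h, against 4.23, 3.78 and 3.70 CPM with thapsigargin and 2.64, 2.43 and 4.71 CPM with DMSO at 2 h, a response change of -2.30 ± 0.39 (edgeR adjusted p = 0.0025). It was highest with DMSO at 12 h, and its drug-treated libraries lay lower at 12 h than at 2 h. Tef, its relative, changed by -1.25 ± 0.25, beside Dbp above. Nfe2l1, a factor of proteasome genes, was the other member with a higher response besides Cebpd, at 0.98 ± 0.18, while Nfe2l2, the gene of NRF2, was not called (-0.04, adjusted p = 0.96).

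Among p53 target genes and their relatives, Tnfrsf10b, the mouse death receptor DR5, stood at 60.9 and 59.9 CPM with thapsigargin and 33.8 and 34.8 CPM with DMSO at 12 h, against 28.9, 29.8 and 31.2 CPM with thapsigargin and 37.1, 39.6 and 66.0 CPM with DMSO at 2 h. It was above DMSO at 12 h and below it at 2 h, with a response change of 1.48 ± 0.31 (edgeR adjusted p = 0.0075). Rrm2b, a ribonucleotide reductase subunit, changed by 1.79 ± 0.38, and Plk2, a stress-induced kinase, by 1.16 ± 0.13. Among hypoxia genes Ndrg1, a stress-induced gene, stood at 501 and 495 CPM with thapsigargin and 78.6 and 79.2 CPM with DMSO at 12 h, against 168, 167 and 161 CPM with thapsigargin and 103, 105 and 164 CPM with DMSO at 2 h and changed by 2.24 ± 0.26 (edgeR adjusted p = 0.00031), the largest change of that list. Myog, the differentiation factor myogenin, stood at 3.42 and 3.52 CPM with thapsigargin and 1.40 and 2.46 CPM with DMSO at 12 h, against 13.7, 14.9 and 11.8 CPM with thapsigargin and 23.4, 22.2 and 22.3 CPM with DMSO at 2 h. Its level was far lower at 12 h than at 2 h in both arms, with a response change of 1.61 ± 0.30 (edgeR adjusted p = 0.004).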
